A study of Rattus norvegicus with 12 samples.

Results

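Levels of 10 genes that neurons switch on with their activity, and that encode secreted or synaptic proteins, were compared across 12 RNA-seq libraries. The genes are LOC100909521, which is Vgf, together with Scg2, Penk, Adcyap1, Bdnf, Inhba, Nptx1, Nptx2, Homer1 and Arc. They were picked by name from the 28111 gene names in the files, with their behaviour in these libraries already known, so their levels and differences are given as a description and carry no test. Each of the 10 names was found and has 1 row. The files list Vgf under LOC100909521, and the Entrez number in the authors' gene table gives its identity.

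The libraries were made from rat cortical neuroglial cultures, a mixture of neurons and glia from newborn Wistar pups (day 0 after birth by the labels), kept for 10 days in vitro with cytosine arabinoside given early to restrain dividing cells. RNA was isolated 4 h after an addition. The intact control (IC) received none. The other groups received products that glial progenitor cells derived from human induced pluripotent stem cells had released into their medium: their extracellular vesicles at 10 µg/mL (EV), the 3-100 kDa proteins at 15 µg/mL, or the total secretome at 45 µg/mL. There were 3 libraries per group, no mutant or transgene in any of them, and a general statement in the methods that experiments were repeated on unrelated cultures. Which culture or day each library came from is not given in the labels, so p-values measure the spread between these libraries, part of which may be technical. The doses differ, so the preparations are set side by side as given and not at a matched dose.

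Strong synaptic activity lets calcium into a neuron, and kinases then act on transcription factors that are already present, among them CREB and SRF. A first wave of transcripts follows, which includes transcription factors such as Fos and Egr1 and also Arc and the short form of Homer1. Later or slower transcripts encode neuropeptides, granins, neurotrophins and pentraxins, which leave the cell and act on synapses and neighbouring cells.

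Levels are in TPM as deposited, a transcript abundance normalised for transcript length and library total, so they can be compared between genes. Their read depth is unknown. Differences are log2 fold changes of log2(TPM + 1), taken after scaling within the 6 libraries compared and given with a standard error (SE), and libraries of a pair of groups are said to overlap or not on the same scaled values. A value of 0 in the files need not mean that a gene was silent, since Rps6, which every cell uses to build ribosomes, has 0 TPM throughout. The summed level of 8 neuronal markers was 2409 to 2539 TPM in IC, 2343 to 2655 TPM in EV, 1968 to 2424 TPM with the total secretome and 2033 to 2315 TPM with the 3-100 kDa proteins, so the cultures held abundant neuronal RNA throughout. None of the 8 differed from IC after any treatment by a fold over 1.5 with p under 0.05 (limma, unadjusted). The 6 astrocyte markers summed to 731 to 1043 TPM in IC and 880 to 1460 TPM in the treated libraries. Gfap, an intermediate filament of astrocytes, was 1.58 ± 0.51 (SE) higher on the log2 scale in EV and 1.40 ± 0.55 with the total secretome. Both met that rule of fold and p, and neither passed an FDR of 0.05. Its IC libraries spread from 85.1 to 361 TPM, the highest close to the lowest of EV (362 TPM). With the 3-100 kDa proteins Gfap was 1.05 ± 0.51 higher and did not meet the rule of fold and p. The other 5 astrocyte markers did not meet it in any treatment. They lay from −0.25 to 0.09 in EV, from −0.03 to 0.40 with the total secretome and from −0.13 to 0.35 with the 3-100 kDa proteins. The 6 oligodendrocyte lineage markers summed to 174 to 221 TPM in IC, 185 to 225 TPM in EV, 230 to 253 TPM with the total secretome and 121 to 183 TPM with the 3-100 kDa proteins, where Olig1 was lower by the rule (−0.59 ± 0.21). The markers of microglia (6), endothelium (3) and mural cells and fibroblasts (5) summed to at most 1.97, 0.595 and 4.28 TPM, with Cx3cr1 and P2ry12 of the microglial list at 0 in all IC and EV libraries. Among the last, the pericyte receptor gene Pdgfrb, 2.45 to 4.01 TPM in IC, was lower in EV (−0.90 ± 0.24), with the total secretome (−0.92 ± 0.22) and with the 3-100 kDa proteins (−1.42 ± 0.24). The collagen gene Col1a1 of the same list was higher with the 3-100 kDa proteins (1.10 ± 0.24, mean 0.219 TPM in IC and 1.58 TPM treated), having passed the filter through the treated libraries, and Acta2 went from 0 in IC to a mean of 1.20 TPM there, too low to test. The part of these markers in the levels below was not tested, and in such bulk RNA fewer cells of a type and less RNA per cell cannot be told apart.

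The promoters of these genes are shown because CREB-bound elements are a known route from calcium to their transcription. In RefSeq (build GRCr8) 7 of the 10 genes have a window around a transcription start, 12 windows in all, of which 6 belong to Bdnf. Nptx1, Penk and Arc have none in the table. The 250 bases before each start were searched on both strands. The full cAMP response element (CRE), TGACGTCA, was in 2 genes, Vgf and Scg2, against 1.78% of all 27457 genes with a window. Its half-site, TGACG, which is also counted inside each full element, was in those genes, in Nptx2 and in 1 of the 6 windows of Bdnf, against 20.0% of all genes. Counted by window it was in 4 of the 12, against 18.2% of all windows. The AP-1 element TGANTCA was in 1 window of Bdnf (6.99% of all genes and 6.34% of all windows), while the EGR element GCGTGGGCG (0.535% of all genes) and the CArG box (1.62%) were in no window of these genes. The 150 bases before the start are printed 5′ to 3′ on the gene's strand, with the full element of Vgf (chr12:25277021-25277170, minus strand) and Scg2 (chr9:88256867-88257016, minus strand) and the half-site of Nptx2 (chr12:15162046-15162195, minus strand) and of the fourth window of Bdnf (chr3:116637708-116637857, plus strand, where it lies on the other strand and reads CGTCA) in capitals.
Vgf: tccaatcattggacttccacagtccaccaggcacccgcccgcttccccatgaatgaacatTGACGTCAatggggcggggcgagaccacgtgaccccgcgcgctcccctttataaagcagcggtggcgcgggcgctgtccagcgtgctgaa
Scg2: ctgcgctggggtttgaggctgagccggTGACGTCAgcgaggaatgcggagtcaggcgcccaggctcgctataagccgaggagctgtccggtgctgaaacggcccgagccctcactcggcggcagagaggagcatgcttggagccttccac
Nptx2: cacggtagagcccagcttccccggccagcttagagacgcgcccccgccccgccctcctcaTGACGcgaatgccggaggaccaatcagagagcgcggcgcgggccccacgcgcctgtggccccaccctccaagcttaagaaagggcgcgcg
Bdnf: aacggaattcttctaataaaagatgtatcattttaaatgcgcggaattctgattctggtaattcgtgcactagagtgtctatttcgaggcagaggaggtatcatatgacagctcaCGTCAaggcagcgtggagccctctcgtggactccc
The first base of the element lies 90 bases before the start in Vgf, 123 in Scg2, 90 in Nptx2 and 35 in Bdnf. A match is a run of letters and not evidence that a factor was bound.

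In IC the most abundant of these transcripts were Scg2 (46.3 ± 9.19 TPM, SD, n = 3 here and for all group means), Homer1 (45.1 ± 15.1 TPM) and Penk (34.9 ± 1.66 TPM), and the least abundant were Bdnf (1.69 ± 0.833 TPM) and Arc (0.825 ± 0.265 TPM). Vgf was number 5 of the 10, at 10.6 ± 0.425 TPM. The 10 transcripts together made 180 ± 32.2 TPM in IC, 239 ± 23.9 TPM in EV, 565 ± 55.7 TPM with the total secretome and 724 ± 76.4 TPM with the 3-100 kDa proteins. Vgf took a growing part of that sum, from 5.30 to 7.15% in the IC libraries and 18.7 to 22.8% in EV to 28.9 to 33.2% with the total secretome and 38.4 to 45.0% with the 3-100 kDa proteins. Ranked by mean level among all 28111 names, Vgf stood at 8147 in IC, 2974 in EV, 693 with the total secretome and 396 with the 3-100 kDa proteins, where it was the most abundant of the 10.

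**Figure D1:**
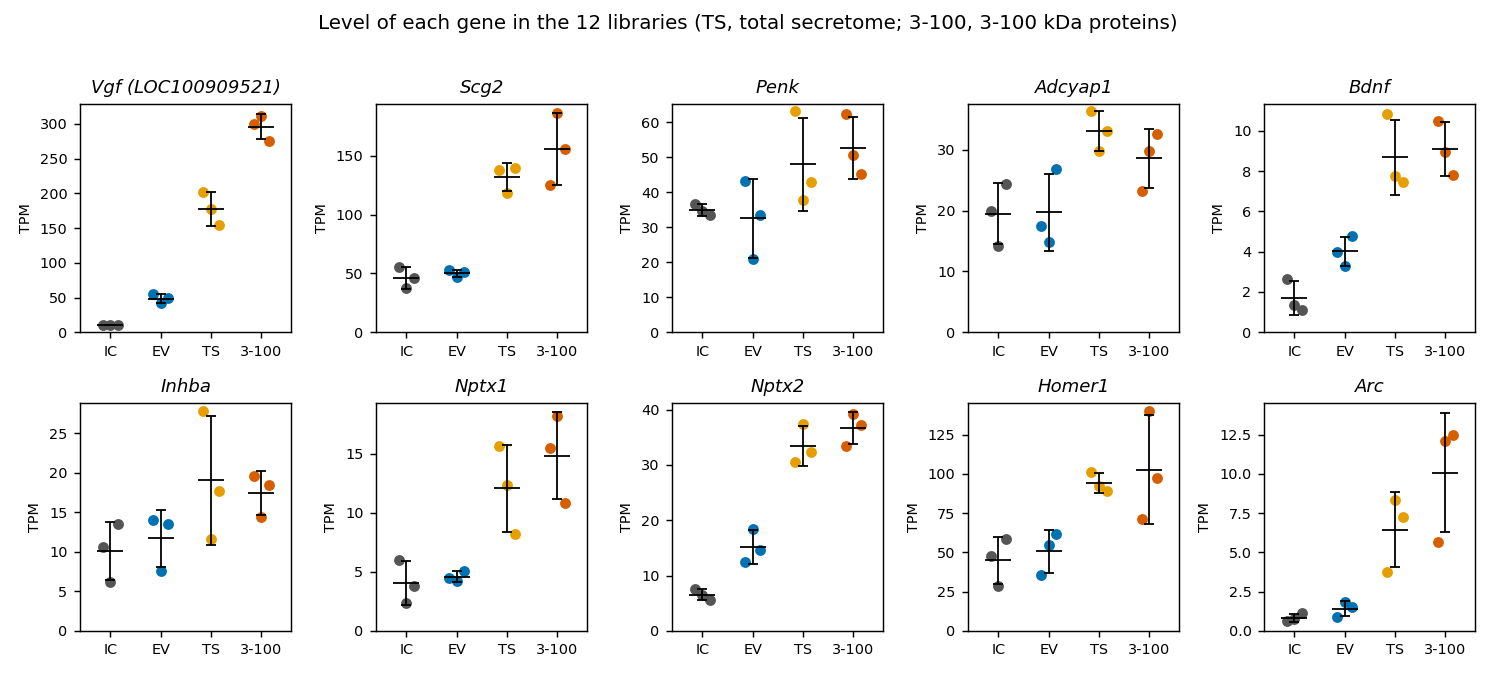
Level of each of the 10 transcripts in TPM (vertical axis, from 0) in the 3 libraries of IC, EV, the total secretome (TS) and the 3-100 kDa proteins (3-100). Points are libraries, the wide mark is the mean and the bars are the SD. Vgf lies at 4 separate levels, from 10.2 to 11 TPM in IC up to 276 to 311 TPM with the 3-100 kDa proteins, whereas Scg2, Homer1 and Adcyap1 in EV overlap the IC libraries.

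Vgf encodes a granin-like neurosecretory protein that is cut into peptides. Its level was 10.5, 10.2 and 11 TPM in the IC libraries and 54.6, 42.0 and 49.0 TPM in EV. It was 202, 177 and 154 TPM with the total secretome and 300.2, 311 and 276 TPM with the 3-100 kDa proteins. No library of one group reached the range of another, so the order IC, EV, total secretome, 3-100 kDa proteins held library by library. Against IC, Vgf was 2.08 ± 0.18 (SE) higher on the log2 scale in EV (4.23-fold), 3.96 ± 0.12 with the total secretome (15.6-fold) and 4.71 ± 0.12 with the 3-100 kDa proteins (26.2-fold).

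Scg2, secretogranin II, is a granin of dense-core vesicles and the precursor of secretoneurin. Its level was 55.6, 37.2 and 46.1 TPM in IC and 52.6, 46.7 and 51.4 TPM in EV, which overlap. It was 138, 119 and 140 TPM with the total secretome and 125.5, 187 and 156 TPM with the 3-100 kDa proteins. The libraries of these latter groups lay above all of IC and EV and overlapped each other. The differences from IC were 0.12 ± 0.18 in EV, 1.53 ± 0.17 with the total secretome and 1.76 ± 0.20 with the 3-100 kDa proteins. Scg2 and Vgf therefore parted in EV, where the first stayed within the IC libraries and the second was above them.

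Penk, the precursor of the enkephalins, and Adcyap1, which encodes the peptide PACAP, differed less from IC than the other secreted genes did with the total secretome and with the 3-100 kDa proteins. Penk was 36.7, 34.7 and 33.4 TPM in IC, 43.3, 20.8 and 33.5 TPM in EV, 63.1, 37.7 and 42.9 TPM with the total secretome and 62.3, 50.5 and 45.1 TPM with the 3-100 kDa proteins. Adcyap1 was 19.9, 14.3 and 24.4 TPM in IC, 17.5, 14.8 and 26.8 TPM in EV, 36.4, 29.8 and 33.2 TPM with the total secretome and 23.3, 29.8 and 32.6 TPM with the 3-100 kDa proteins. The lowest Penk library of the total secretome was just above the highest of IC, and the lowest Adcyap1 library of the 3-100 kDa proteins was below the highest of IC. Penk differed from IC by −0.16 ± 0.28, 0.43 ± 0.17 and 0.60 ± 0.13 in EV, total secretome and 3-100 kDa proteins, and Adcyap1 by −0.00 ± 0.30, 0.78 ± 0.22 and 0.58 ± 0.26.

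Bdnf, the neurotrophin that activates the TrkB receptor, was scarce in every group. It was 2.64, 1.33 and 1.09 TPM in IC and 4.01, 3.30 and 4.76 TPM in EV. It was 10.8, 7.74 and 7.46 TPM with the total secretome and 10.5, 8.94 and 7.82 TPM with the 3-100 kDa proteins. All EV libraries lay above IC and below both other preparations, which overlapped. The differences from IC were 0.93 ± 0.27 in EV (1.91-fold), 1.89 ± 0.24 with the total secretome (3.71-fold) and 1.97 ± 0.24 with the 3-100 kDa proteins (3.91-fold). At such levels the added 1 TPM shortens the difference, and with 0.1 TPM in its place Bdnf was 1.28, 2.39 and 2.48 above IC in the same order.

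Inhba encodes the subunit that forms activin A. Its level was 10.6, 6.22 and 13.5 TPM in IC, 14, 7.53 and 13.5 TPM in EV, 27.8, 11.6 and 17.6 TPM with the total secretome and 19.5, 14.3 and 18.4 TPM with the 3-100 kDa proteins. The groups ran into one another, and the libraries of the total secretome were spread from 11.6 to 27.8 TPM. The difference from IC was 0.20 ± 0.36 in EV, 0.84 ± 0.35 with the total secretome and 0.80 ± 0.30 with the 3-100 kDa proteins. The deposited values of the 3-100 kDa proteins lie just above IC (14.3 against 13.5 TPM at the nearest), and after scaling they overlap.

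The neuronal pentraxins Nptx1 and Nptx2 are secreted at synapses and gather AMPA receptors there, with Nptx2 being the form known for its response to activity. Nptx2 was 7.59, 6.52 and 5.5 TPM in IC, 12.5, 18.5 and 14.6 TPM in EV, 30.5, 37.4 and 32.3 TPM with the total secretome and 33.4, 39.2 and 37.3 TPM with the 3-100 kDa proteins. Nptx1 was 6.03, 2.36 and 3.83 TPM in IC, 4.49, 4.20 and 5.11 TPM in EV, 15.6, 12.3 and 8.24 TPM with the total secretome and 15.5, 18.2 and 10.9 TPM with the 3-100 kDa proteins. In EV, Nptx2 lay above every IC library and Nptx1 lay inside the IC range. Nptx2 was 1.09 ± 0.19 above IC in EV, 2.21 ± 0.16 with the total secretome and 2.36 ± 0.16 with the 3-100 kDa proteins, and Nptx1 was 0.20 ± 0.29, 1.41 ± 0.29 and 1.71 ± 0.28 above it.

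Homer1 and Arc act inside the neuron at the postsynapse. Homer1 binds metabotropic glutamate receptors and Shank proteins, and its values sum all transcripts of the gene, so the short activity-induced form is not seen apart from the long ones. It was 47.8, 28.8 and 58.6 TPM in IC, 35.6, 54.5 and 61.7 TPM in EV, 101, 92.6 and 89.0 TPM with the total secretome and 71.0, 140 and 97.1 TPM with the 3-100 kDa proteins. The groups given the total secretome or the 3-100 kDa proteins did not overlap IC, and the 3 libraries of the 3-100 kDa proteins were wide apart. Differences from IC were 0.18 ± 0.32 in EV, 1.12 ± 0.25 with the total secretome and 1.20 ± 0.33 with the 3-100 kDa proteins.

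Arc, whose protein drives removal of AMPA receptors from the synapse, was the rarest of these transcripts in IC. It was 0.622, 0.727 and 1.12 TPM in IC and 0.903, 1.83 and 1.5 TPM in EV, which overlap. It was 3.77, 8.33 and 7.27 TPM with the total secretome and 5.69, 12.1 and 12.5 TPM with the 3-100 kDa proteins. In both of these groups replicate 1 was the lowest, as it also was for the transcription factors Egr1, Egr2 and Fosb named below. Arc was 0.38 ± 0.26 above IC in EV, 1.99 ± 0.32 with the total secretome and 2.56 ± 0.33 with the 3-100 kDa proteins, and with 0.1 TPM added in place of 1 these became 0.68, 2.80 and 3.44. In each comparison with IC, EV included, it reached the filter, 1 TPM in 3 libraries, only with the help of the treated libraries, since a single IC library was at 1 TPM or more.

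**Figure D2:**
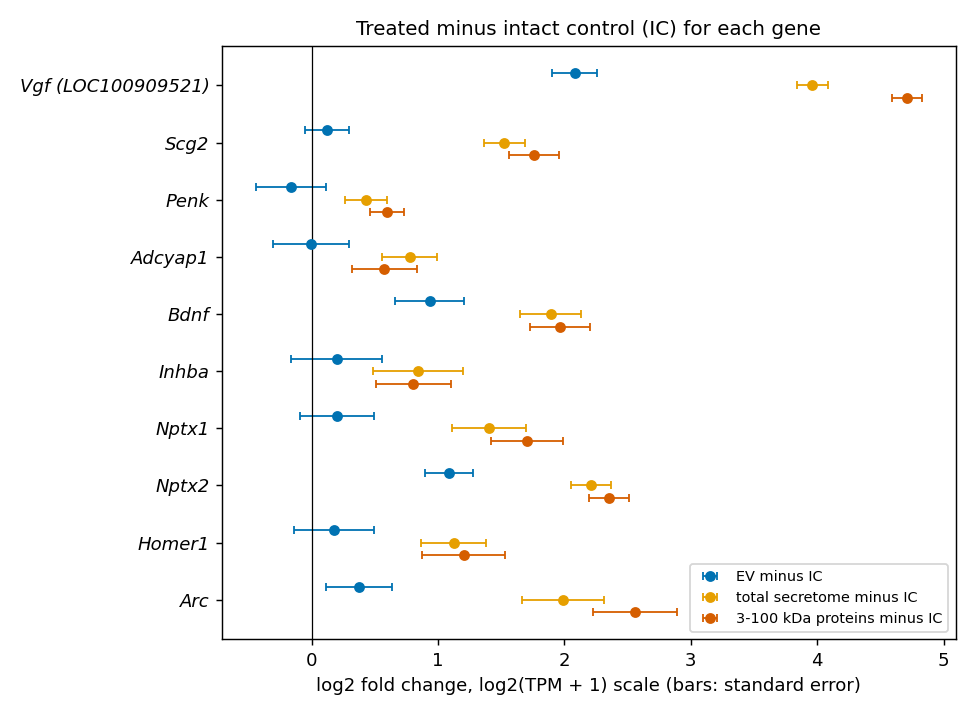
Log2 fold change from IC (horizontal axis, log2(TPM + 1) scale) of each of the 10 genes in EV, the total secretome and the 3-100 kDa proteins. Points are estimates and bars are SE. The EV points of 7 genes sit between −0.16 and 0.38 while those of Vgf, Nptx2 and Bdnf reach 2.08, 1.09 and 0.93, and the points of the other preparations are all above 0.

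Set side by side, the comparisons with IC differed in how many of the 10 genes they held. They share the IC libraries, so they are not independent of one another. In EV, 3 of the 10 genes (Vgf, Nptx2 and Bdnf) had all libraries above IC, and 3.70% of all genes tested did. The figures were 9 genes with the total secretome (all but Inhba) beside 13.0% of all genes, and 8 genes with the 3-100 kDa proteins (all but Inhba and Adcyap1) beside 12.6%. Since the genes were chosen on such contrasts, nothing further is read from these counts. Their median difference was 0.20 in EV, 1.47 with the total secretome and 1.73 with the 3-100 kDa proteins, and the median of all genes tested was −0.01, −0.01 and −0.02. The EV median moved with the control libraries, as it was −0.051 without IC replicate 2 and 0.44 without IC replicate 3.

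Between treatments, EV lay below the 3-100 kDa proteins with no overlap for 8 of the 10 genes (9.00% of all genes tested were lower in this way), the exceptions being Inhba and Adcyap1. The widest gaps were in Vgf (−2.62 ± 0.14, EV minus 3-100 kDa proteins) and Arc (−2.17 ± 0.34), followed by Scg2 (−1.63 ± 0.18) and Nptx1 (−1.50 ± 0.20). EV lay below the total secretome with no overlap also for 8 genes (7.44%), here all but Penk and Inhba. Bdnf and Nptx2, which were above IC in EV, still differed from the total secretome by −0.95 ± 0.21 and −1.11 ± 0.17. The total secretome and the 3-100 kDa proteins gave overlapping libraries for 9 genes, with differences from −0.56 (Arc, ± 0.38) to 0.21 (Adcyap1, ± 0.17). Vgf was the exception, with a difference of −0.74 ± 0.08 (total secretome minus 3-100 kDa proteins) and no overlap, which 3.22% of all genes tested showed.

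The nearest genes in pattern over the 12 libraries, some of them among the 10 themselves, were sought for Vgf, Bdnf and Scg2 among 10249 genes with a mean of at least 5 TPM. These correlations are descriptions, they follow mainly the steps between the 4 groups and all rest on the same libraries. Nearest to Vgf were Emp1, a membrane protein (Pearson r = 0.985, n = 12 libraries), Lmna, which encodes the nuclear lamins A and C (0.981), Mybbp1a (0.981), RGD1307704 (0.980) and Nptx2 (0.975). Emp1 went from a mean of 1.09 TPM in IC to 6.38 TPM in EV, 26.1 TPM with the total secretome and 44.0 TPM with the 3-100 kDa proteins. Nearest to Bdnf were Vgf (0.963), Emp1 (0.957), Gar1 (0.955), the kinase gene Plk3 (0.953) and Nptx2 (0.948). Scg2 had another company, Dot1l (0.975), Cav1, the caveola protein (0.975), Actn1 (0.974), AABR07052897.3 (0.973) and Csnk2a2 (0.967). Cav1 was 8.51 TPM in IC, 10.9 TPM in EV, 35.1 TPM with the total secretome and 37.5 TPM with the 3-100 kDa proteins.

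The other genes of the same pathways were taken from 7 lists of 77 genes, and a gene is said to rise or fall where its fold change passed 1.5 with p under 0.05 (limma, unadjusted). These lists were drawn up with earlier results of these data known. Their shares and p-values therefore describe these libraries and are no independent test. Adjusted p-values are over all genes tested, and an FDR of 0.05 was passed by 0.141% of them in EV against IC, 1.97% with the total secretome and 3.31% with the 3-100 kDa proteins. In EV, 5 of 63 listed genes tested rose (7.94%, beside 1.56% of all genes) and none fell (0.588% of all genes). With the total secretome 19 of 67 rose (28.4%, beside 5.54%) and 2 fell (2.99%, beside 2.54%), and with the 3-100 kDa proteins 20 of 67 rose (29.9%, beside 6.64%) and none fell (3.38% of all genes). The EV count falls to 3 without EV replicate 1. Some of the genes that rose had fewer than 3 IC libraries at 1 TPM and so passed the filter through the treated libraries, where they had to be high. They were 2 in EV (Crh and Gal) and 6 with each other preparation (Egr2, Egr4, Fosb, Gadd45b, Gal and Ptgs2). Leaving them aside, 3, 13 and 14 of the genes that rose remain in EV, total secretome and 3-100 kDa proteins, and adjusted p-values of those left aside are not given. The shares above include the genes left aside. No share of all genes was taken with such genes removed, so the remaining counts have no background to be set beside. With the genes left aside included, transcription factors were 3 of the 5, 9 of the 19 and 10 of the 20 that rose, and receptors and synaptic partners were none of them.

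**Figure D3:**
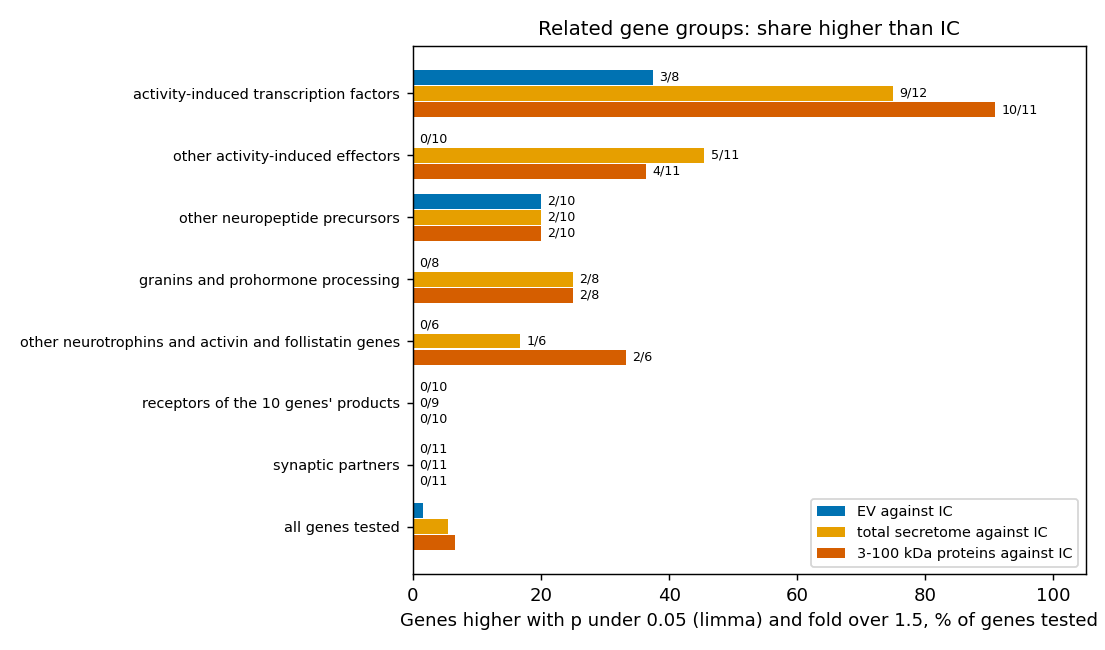
Share of the tested genes of each list that were above IC with p under 0.05 and a fold change over 1.5 (horizontal axis, percent from 0), for EV, the total secretome and the 3-100 kDa proteins. Bars of the activity-induced transcription factors reach 37.5%, 75.0% and 90.9%, the last 2 including Egr2, Egr4 and Fosb, which passed the filter through the treated libraries, and those of the receptors and synaptic partners are at 0.

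Of 12 activity-induced transcription factors, 3 of 8 tested rose in EV, 9 of 12 with the total secretome and 10 of 11 with the 3-100 kDa proteins. Without Egr2, Egr4 and Fosb, which passed the filter through the treated libraries, those that rose were 3, 6 and 7. Egr1 was 13.0, 11.8 and 9.94 TPM in IC and 24, 24 and 23.7 TPM in EV. It was 35.2, 62.3 and 64.4 TPM with the total secretome and 67.2, 119 and 94.3 TPM with the 3-100 kDa proteins, which puts the groups in the order seen for Vgf. The deposited values of these last groups lie just apart (64.4 against 67.2 TPM at the nearest), and after scaling they overlap. It rose by 0.98 ± 0.15 in EV (adjusted p = 0.0969), 2.10 ± 0.27 with the total secretome (adjusted p = 0.0116) and 2.91 ± 0.22 with the 3-100 kDa proteins (adjusted p = 0.00131). For this gene EV minus 3-100 kDa proteins was −1.91 ± 0.21 (adjusted p = 0.0182), in a comparison where 68 genes (0.533%) passed, and 341 with the replicate number as a block.

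Fos kept another order. It was 4.46, 4.05 and 2.24 TPM in IC, 21.8, 19.4 and 15.3 TPM in EV, 15.5, 22.5 and 21.6 TPM with the total secretome and 7.5, 11.2 and 13.0 TPM with the 3-100 kDa proteins. It rose by 2.13 ± 0.24 in EV (adjusted p = 0.0398), a value past the FDR that is lost with the replicate block and without IC replicate 1 or any of the EV libraries, where no gene passes, while the difference itself was 1.94 to 2.25 with any 1 library left out. It rose by 2.23 ± 0.25 with the total secretome (adjusted p = 0.00879) and 1.37 ± 0.29 with the 3-100 kDa proteins (adjusted p = 0.0511). All EV libraries were above those of the 3-100 kDa proteins, a difference of 0.77 ± 0.26 that missed the adjusted threshold (adjusted p = 0.373), whereas every one of the 10 genes had its higher mean with the proteins. Junb, a partner of Fos, was highest in EV, at 14.3 ± 1.17 TPM beside 4.97 ± 0.327 TPM in IC and 9.06 ± 1.22 TPM with the 3-100 kDa proteins (EV minus IC 1.34 ± 0.18, adjusted p = 0.0648).

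Egr2 and Fosb were almost silent in IC and in EV they did not reach the filter. Egr2 was 0.269 to 0.480 TPM in IC, 0.455 to 1.99 TPM in EV, 9.69 to 16.5 TPM with the total secretome and 14.2 to 29.1 TPM with the 3-100 kDa proteins. The fitted difference from IC was 3.45 ± 0.28 and 4.14 ± 0.31 with these preparations, and with 0.1 TPM added in place of 1 it was 4.95 and 5.68. Fosb was at most 0.159 TPM in IC, where 1 library is listed at 0, and at most 0.343 TPM in EV, and it was 5.61 to 8.61 TPM with the total secretome and 4.89 to 7.88 TPM with the 3-100 kDa proteins. For this gene the difference of EV from the total secretome was −2.82 ± 0.26 and from the 3-100 kDa proteins −2.67 ± 0.26, and with 0.1 TPM added these were −4.75 and −4.59. Both genes passed the filter only through the libraries where they are high, so these differences are a description. Npas4, a factor induced by calcium entry, stayed low, at 0.406 to 3.35 TPM over the 12 libraries.

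Of the other activity-induced effectors none of 10 tested rose in EV, 5 of 11 rose with the total secretome and 4 of 11 with the 3-100 kDa proteins, or 3 and 2 without Gadd45b and Ptgs2, which passed the filter through the treated libraries. Gadd45b, a stress and demethylation factor, was 0.431 to 1.79 TPM in IC, 2.04 to 2.26 TPM in EV, 4.00 to 5.88 TPM with the total secretome and 5.60 to 7.08 TPM with the 3-100 kDa proteins. Its difference from IC was 1.59 ± 0.29 and 1.90 ± 0.27 with the latter groups, and with 2 IC libraries at 1 TPM or more it too reached the filter through the treated ones. Sik1, a kinase that restrains CREB coactivators, was 9.13 to 9.81 TPM in IC, 9.51 to 10.8 TPM in EV, 16.1 to 20.3 TPM with the total secretome and 17.6 to 18.6 TPM with the 3-100 kDa proteins, and its rise was 0.83 ± 0.17 (adjusted p = 0.0556) and 0.89 ± 0.15 (adjusted p = 0.0245). Rgs2, a brake on G-protein signalling, rose by 0.67 ± 0.17 (adjusted p = 0.111) and 0.65 ± 0.16 (adjusted p = 0.0911), and its rise fell short of 1.5-fold without total secretome replicate 3 (0.54), and without IC replicate 1 (0.58) or 3-100 kDa proteins replicate 3 (0.52). The protocadherin gene Pcdh8 rose with the total secretome only just (0.59 ± 0.16, adjusted p = 0.133), and not without IC replicate 2 (0.45) or total secretome replicate 1 or 2 (0.55 and 0.52), nor on unscaled TPM (0.57).

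The machinery that turns granins and prohormones into peptides moved in part. With the total secretome and with the 3-100 kDa proteins 2 of 8 genes tested rose, Pam and Pcsk1, and none rose in EV. Pam, which amidates peptides, was 75.5 to 93.6 TPM in IC, 67.1 to 96.2 TPM in EV, 142 to 166 TPM with the total secretome and 138 to 191 TPM with the 3-100 kDa proteins. It rose by 0.92 ± 0.14 (adjusted p = 0.0219) and 0.93 ± 0.17 (adjusted p = 0.0340). Pcsk1, a convertase that cuts Vgf and other prohormones, rose by 0.82 ± 0.21 (adjusted p = 0.112) and 0.84 ± 0.26 (adjusted p = 0.155), the latter not without 3-100 kDa proteins replicate 2 or 3 (0.73 and 0.72, p over 0.05). The convertase Pcsk2 fell with the total secretome by the same rule (−0.60 ± 0.24, adjusted p = 0.281), with overlapping libraries.

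Among other neuropeptide precursors, 2 of 10 tested met the p and fold rule in each comparison with IC. In EV these were Gal and Crh, which passed the filter through the treated libraries, so that 0 remain without them, and with each other preparation they were Gal and Tac1, of which Tac1 remains. Gal, the galanin precursor, was 1.12, 0.606 and 0 TPM in IC, 1.39 to 2.07 TPM in EV, 1.96 to 3.51 TPM with the total secretome and 5.51 to 6.50 TPM with the 3-100 kDa proteins. Its difference from IC was 2.27 ± 0.29 with the 3-100 kDa proteins, 1.39 ± 0.33 with the total secretome and 0.86 ± 0.32 in EV, each after passing the filter through the treated libraries, and in EV it no longer met the p and fold rule without IC replicate 3 (0.58) or without EV replicate 1 or 2 (0.76 and 0.88). With 0.1 TPM added in place of 1 these differences became 3.86, 2.79 and 2.05, and the EV one no longer met the rule. Tac1, the substance P precursor, was 3.27 to 6.98 TPM in IC, 4.58 to 5.27 TPM in EV, 7.66 to 18.9 TPM with the total secretome and 10.1 to 18.4 TPM with the 3-100 kDa proteins. It rose by 1.26 ± 0.33 (adjusted p = 0.118) and 1.30 ± 0.27 (adjusted p = 0.0491). Crh was 0.70 ± 0.29 above IC in EV, with overlapping libraries.

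Of the other neurotrophin, activin and follistatin genes, Nrn1, a small membrane-anchored growth factor, was 10.3 to 15.2 TPM in IC, 10.2 to 12.1 TPM in EV, 18.6 to 26.3 TPM with the total secretome and 19.4 to 30.6 TPM with the 3-100 kDa proteins. It rose by 0.76 ± 0.17 (adjusted p = 0.0715) and 0.90 ± 0.18 (adjusted p = 0.0461). Fst, follistatin, which binds the activin made from Inhba, fell with the total secretome from 6.86 to 11.7 TPM down to 2.15 to 4.11 TPM (−1.12 ± 0.26, adjusted p = 0.0857).

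**Figure D4:**
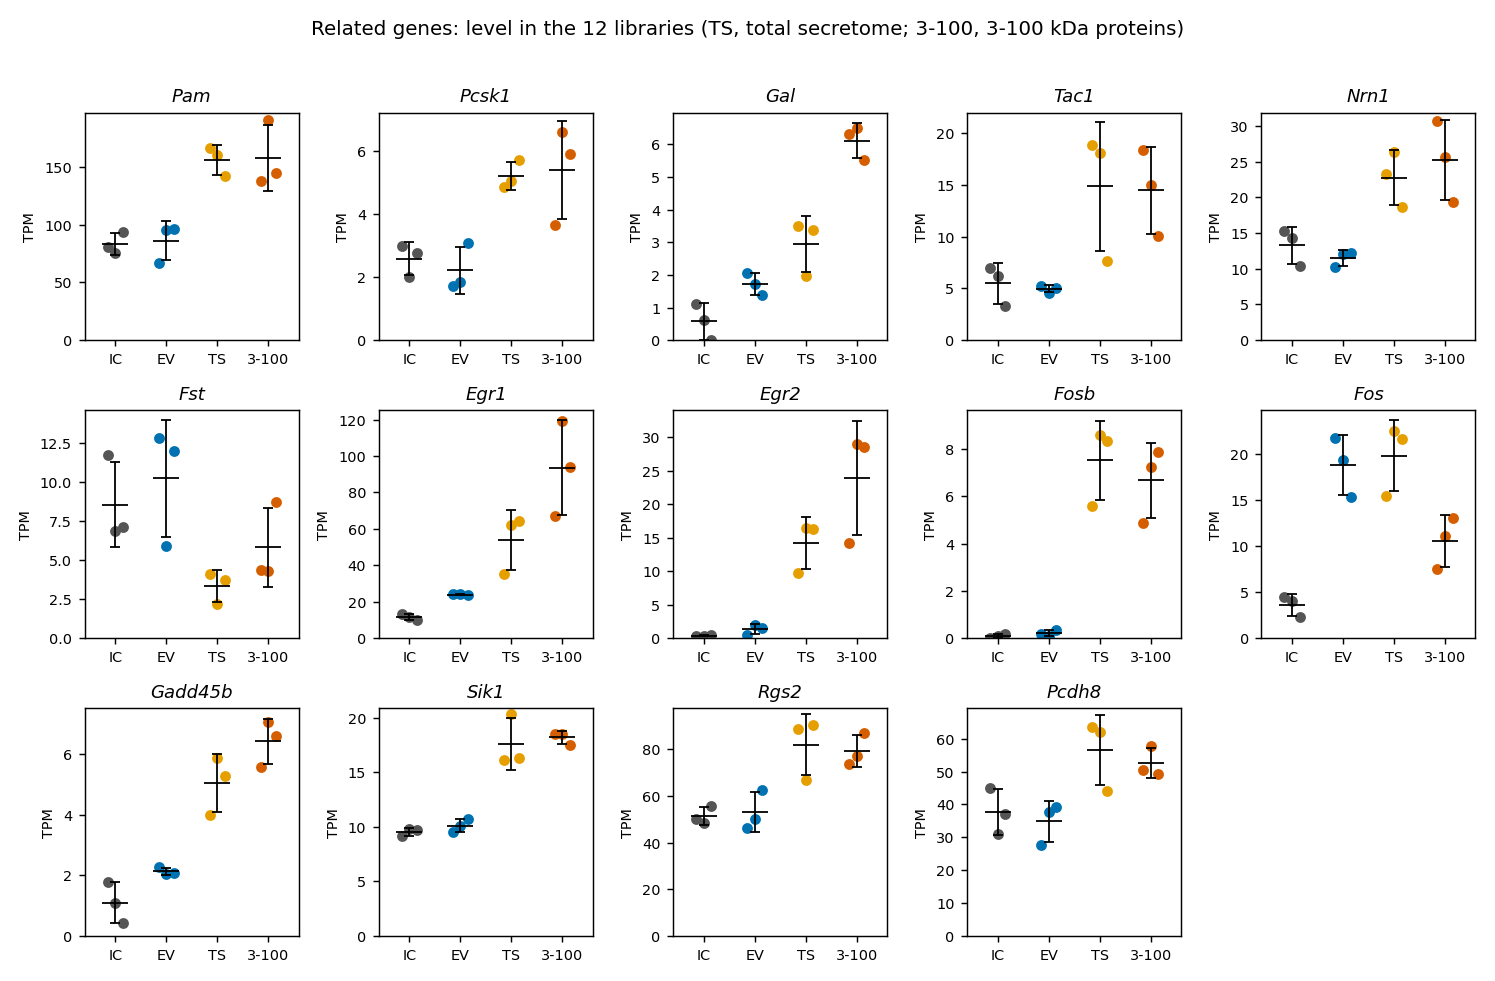
Level in TPM (vertical axis, from 0) of related genes of the lists in the 12 libraries. Points are libraries, the wide mark is the mean and the bars are the SD. Egr1 reaches 67.2 to 119 TPM with the 3-100 kDa proteins (3-100), while Fos is highest in EV and the total secretome (TS) and Fst is lowest with the total secretome.

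Of the 15 receptor genes of the secreted products 9 or 10 were high enough to test. None of these rose or fell in any comparison with IC, and neither did any of the 11 synaptic partners. Ntrk2, the TrkB receptor of Bdnf, was 190 ± 17.1 TPM in IC, 188 ± 29.5 TPM in EV, 199 ± 3.24 TPM with the total secretome and 196 ± 27.8 TPM with the 3-100 kDa proteins. Nptxr, the membrane-bound pentraxin, was 185 ± 9.21, 190 ± 14.7, 200 ± 24.9 and 237 ± 20.6 TPM in the same order, above all IC libraries with the 3-100 kDa proteins (0.38 ± 0.11). Adcyap1r1, the PACAP receptor, was 126 ± 11.7, 102 ± 17.9, 96.4 ± 7.23 and 88.2 ± 10.6 TPM, below all IC libraries with the total secretome (−0.36 ± 0.13) and the 3-100 kDa proteins (−0.48 ± 0.13), with neither reaching 1.5-fold. C3ar1, a receptor assigned to a Vgf peptide, is listed at 0 in 11 of the 12 libraries.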

How the data were processed

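RNA of rat cortical neuroglial cultures was sequenced in 12 libraries, as a DNBSEQ strand-specific mRNA library by the labels and as a poly(A) library on a NextSeq instrument by the methods. The authors used Trimmomatic and Cutadapt for trimming, Salmon for quantification against rn6 transcripts (Rnor_6.0 in the submitters' processing notes) and tximport for gene-level summaries. The deposited values were taken as TPM, since every library sums to 1e+06 and values are not whole. TPM keeps no depth, so no counting interval was given, and 3 libraries a group limit the precision.

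Rows of one name were summed. Within each comparison TPM was scaled by median-of-ratios factors (0.909 to 1.08 over all libraries), genes with at least 1 TPM in 3 libraries were kept (12754 in EV against IC) and log2(TPM + 1) was tested in the 6 libraries with limma 3.58.1 (lmFit, eBayes with trend, R 4.3.3), with Benjamini-Hochberg adjustment (FDR 0.05). The scripts were tested on simulated data. The 10 genes, the lists and the rules were chosen with earlier results of these data known. The named list genes are those with p under 0.05, a fold over 1.5 and no overlap in a comparison with IC, at most 4 a list by lowest p, plus receptors by level; Junb, Crh, Npas4, C3ar1 and Pcsk2 were added after their values were seen. One gene of the lists is not reported here by name. Below the filter in every comparison with IC were Gdnf, C3ar1, Oprd1, Vipr1, Vipr2 and Gpr3, other genes being untested in some comparisons only. Pcsk1n is listed at 0 in all 12 libraries, and Cort was not analysed here. Motifs were sought in RefSeq promoter windows of GRCr8, which is not the build of the files. Same-numbered libraries deviated together (every r over 0.1, from 0.16 to 0.59) between treatments and between total secretome and IC, which were read as paired from the data alone. Alternatives were deposited TPM without scaling, 0.1 as the added value, no filter, all 12 libraries in one fit, no trend, a replicate block and omission of each library.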

Additional observations from a re-analysis of the deposited data

How the results depend on the processing

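Depth is unknown here, so low genes such as Arc and Bdnf carry an error that cannot be given. Of the 10 genes, none changed sign against IC with the total secretome or the 3-100 kDa proteins under the settings tried. In EV 6 of them (Nptx1, Scg2, Penk, Inhba, Homer1 and Adcyap1) changed sign when a single library was left out, and Adcyap1, close to 0, also with other scaling. The number of all genes past FDR 0.05 depended on the setting. EV against IC gave 18, and 58 with all 12 libraries in one fit. The 3-100 kDa proteins gave 424 against IC and 913 with all 12 libraries, and the total secretome 252 and 533. EV against the 3-100 kDa proteins gave 68, with 43 without a filter and 182 with all 12 libraries, and EV against the total secretome 24 and 57. The total secretome against the 3-100 kDa proteins gave 2, with 4 from deposited TPM and 0 with all 12 libraries (limma, 272 at an unadjusted p under 0.05).

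With the replicate block EV against IC fell to 0 (limma, 365 at an unadjusted p under 0.05) and the 3-100 kDa proteins against IC to 192, while the deviations of same-numbered libraries in these groups correlated unevenly (r = −0.08, −0.18 and 0.54, and −0.01, −0.25 and 0.25). The authors removed a day effect in a plot of the IC and EV libraries, and with the day of each library not given in the sources used here, that correction was not run. In the pairs read as paired the block gave 341 for EV against the 3-100 kDa proteins, 251 for the total secretome against IC, 20 for EV against the total secretome and 5 for the total secretome against the 3-100 kDa proteins. The count of listed genes stayed at 5 in EV and became 21 with the 3-100 kDa proteins (20 without the block) and 23 with the total secretome (21), and the block left every named list gene on its side of the p and fold rule.

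Omitting 1 library gave 0 to 21 genes for EV against IC (none in 4 of 6 omissions, with 234 to 607 at an unadjusted p under 0.05), 88 to 483 for the 3-100 kDa proteins against IC, 31 to 809 for the total secretome against IC, 2 to 72 for EV against the 3-100 kDa proteins, 0 to 55 for EV against the total secretome and 0 to 3 between the total secretome and the 3-100 kDa proteins. The listed genes that changed from IC were then 3 to 5 in EV, 15 to 23 with the 3-100 kDa proteins and 18 to 24 with the total secretome, and with 0.1 TPM added they were 3 in EV. The median difference of the 10 genes was −0.051 to 0.44 in EV, 1.53 to 1.89 with the 3-100 kDa proteins and 1.25 to 1.62 with the total secretome. For Vgf in EV the range was 1.98 to 2.21.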

Other observations

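Within a group the 10 genes did not vary as a block. After the group means were removed, Penk deviated together with Vgf over the 12 libraries (r = 0.79 on the log2 scale) and with Inhba (0.75). So did Homer1 with Adcyap1 (0.71) and Arc with Nptx2 (0.73). Nptx2 deviated in the opposite direction to Penk (−0.87) and to Vgf (−0.71), although over the groups it was among the genes nearest to Vgf. Replicate 1 was the highest for Penk and the lowest for Nptx2 in all 3 treated groups, while in IC it was the highest for both. These are descriptions over libraries that share their preparation, with no test.

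Npy, a neuropeptide of cortical interneurons, is listed at 0 in 7 of the 12 libraries and at 10.2 to 20.8 TPM in the other 5, with zeros in every group.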
